A study of Mus musculus with 240 samples.

Results

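The 7 genes described here are the 3 insulin-like growth factor 2 mRNA-binding proteins (Igf2bp1, Igf2bp2 and Igf2bp3), the 2 HMGA chromatin proteins (Hmga1 and Hmga2), the let-7 regulator Lin28b, and the growth factor gene Igf2. They were chosen by symbol from the 34623 genes of the count table, and all 7 have a row there. Their levels were followed through mouse oligodendrocyte precursor cells (OPCs) with and without deletion of the tumour suppressors Trp53 and Nf1, and in the brain tumours that carry the same deletions.

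These genes are called oncofetal because they are active in embryonic tissue, fall silent in most adult tissues and are found again in many cancers. IGF2BP proteins bind messenger RNAs, among them Igf2 and Myc, and change their stability, transport and translation. HMGA proteins bind the minor groove of AT-rich DNA and bend it, and both are abundant in dividing progenitors. LIN28B binds precursors of the let-7 microRNA family and prevents their maturation. Mature let-7 in turn represses Hmga2, Lin28b and the Igf2bp genes through sites in their 3′ untranslated regions, so that the genes form a loop that is high in the fetus. IGF2 is a secreted, paternally expressed growth factor that signals through the IGF1 and insulin receptors, and in the adult brain it is made mainly by meninges, choroid plexus and vessel-associated cells.

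All cells were captured by laser microdissection from brain sections. Bulk libraries were made from cells that the sample names mark as tdTpositive, a fluorescent label, on 10 µm sections by T7 linear amplification of total RNA. They came from wild-type (WT) mice at 12, 90 and 150 days after the start of tamoxifen (dpi; 5, 5 and 6 animals) and from Trp53-/- Nf1-/- mice (CKO) at 12 and 90 dpi (7 animals each). The tumour group is the same Trp53-/- Nf1-/- genotype at 150 dpi (7 animals, cells labelled as brain tumour cells). WT animals were dated from tamoxifen in the same way. The labels used here name neither the promoter of the Cre recombinase nor the age of the mice. Small libraries came from Trp53-/- Nf1-/- mice alone, at 12 and 90 dpi, on 8 µm sections with PCR amplification of polyA RNA: 56 libraries of 10 captured cells and 40 pool-and-split controls at each time. A pool-and-split control is a portion of pooled captured material, so it carries the technical spread but not that between groups of 10 cells.

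Bulk libraries held 0.0937 to 23.2 M counts (M, 1000000 counts; median 10.0 M), 10-cell libraries 1.64 to 6.49 M and pool-and-split libraries 1.91 to 5.16 M. The shallowest bulk animal, WT_21167 at 90 dpi, is the 0.0937 M one and has only 0 to 2 counts for each of the 7 genes. All 10 OPC markers were detected in every bulk group, with a summed level of 1811 to 3546 CPM (counts scaled to a library of 1000000) in WT at 150 dpi and 4285 to 8745 CPM in tumours, led by Ptprz1 and Pdgfra. Markers of neurons summed to 9554 to 14670 CPM in WT at 150 dpi and 883 to 2816 CPM in tumours, led by Snap25 and Map2, so the neuron sum exceeded the OPC sum in all WT animals of that time. Proliferation genes summed to 78.6 to 163 CPM in WT at 150 dpi and 519 to 3071 CPM in tumours, and microglia and macrophage markers to 116 to 148 and 285 to 1007 CPM. The part of these shifts in cell makeup in the results below was not tested. In bulk material, fewer cells of a type and less RNA per cell cannot be told apart. The targeted gene Nf1 had medians of 310 and 181 CPM in WT and CKO at 12 dpi, 294 and 177 CPM at 90 dpi, and 290 and 217 CPM in WT and tumours at 150 dpi. The animal labelled CKO_20647 had 302 CPM of Nf1 at 90 dpi, inside the WT range, and leaving it out ended no call of a member in tumours against CKO cells. Trp53 transcript ranges overlapped at all 3 times.

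The link between these genes and let-7 can be read in their sequences. The following mature let-7 microRNAs (RefSeq, GRCm38.p6) show the seed in capitals, bases 2 to 8, which pairs with target messages. Of 10 mature let-7 names, 9 have the seed GAGGUAG.
let-7a: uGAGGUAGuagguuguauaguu
let-7b: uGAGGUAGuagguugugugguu
let-7i: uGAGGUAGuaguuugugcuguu
The matching heptamer, CTACCTC, was searched on the transcribed strand in the 3′ untranslated region of the longest coding GENCODE M21 transcript. It occurs in 8.86% of 20936 such regions. It occurs 4 times each in Igf2bp1, Hmga2 and Lin28b, once each in Igf2bp2, Igf2bp3 and Hmga1, and not in Igf2. Longer regions hold it more often. Among regions within 20% of the length of the Hmga2 one (3014 bases), 15.8% hold a match and 0.0909% hold at least as many, and the corresponding shares are 23.9% and 0.159% for Lin28b and 33.6% and 0.178% for Igf2bp1. For the regions with 1 match, 11.8% (Igf2bp2), 13.0% (Igf2bp3) and 8.07% (Hmga1) of like-sized regions hold one. These are letter matches, not measured binding. One stretch per gene with a match is given on GRCm38, with the heptamer in capitals, and a pair for Hmga2, which was called higher in tumours against both control groups whichever animal was left out.
Igf2bp1, chr11:95961774-95961803, minus strand: agtgctgtgcgaagtaaaCTACCTCaaggt
Igf2bp2, chr16:22059469-22059498, minus strand: aaaacacacaaataaaagCTACCTCaggtg
Igf2bp3, chr6:49086783-49086812, minus strand: acgtgcatttttactcaaCTACCTCaggta
Hmga1, chr17:27563274-27563303, plus strand: ttctcctctgttcacaaaCTACCTCtggac
Hmga2, chr10:120364220-120364249, minus strand: ggcgccgacattcaatttCTACCTCagcat
Hmga2, chr10:120361687-120361716, minus strand: tacaatcaaaacacactaCTACCTCttaag
Lin28b, chr10:45381018-45381047, minus strand: ttcacccgggcgggaagtCTACCTCatgca

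Of the 7 genes, 6 passed the filter on low counts and were among the 16349 genes tested by edgeR's quasi-likelihood test. Igf2bp1 did not pass. In tumours against WT at 150 dpi, Hmga1, Hmga2, Igf2bp2 and Igf2 were called higher and Igf2bp3 lower at an adjusted p under 0.05. That is 4 of 6 higher beside 24.3% of all genes tested, and 1 of 6 lower beside 21.9%. In tumours against CKO cells at 90 dpi, Hmga2, Igf2bp2 and Igf2 were called higher (3 of 6, beside 26.4% of all genes) and Igf2bp3 lower (1 of 6, beside 22.6%). Both comparisons use the same tumours, so they are not independent of each other. Scaling by another method (RLE size factors) moved the median gene from 0.06 to 0.22 on the log2 scale in the first comparison and from 0.12 to 0.29 in the second. It moved the share of calls that were higher from 52.6% to 62.1% and from 53.8% to 63.5%, and turned the direction of none of the 6 genes.

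**Figure D1:**
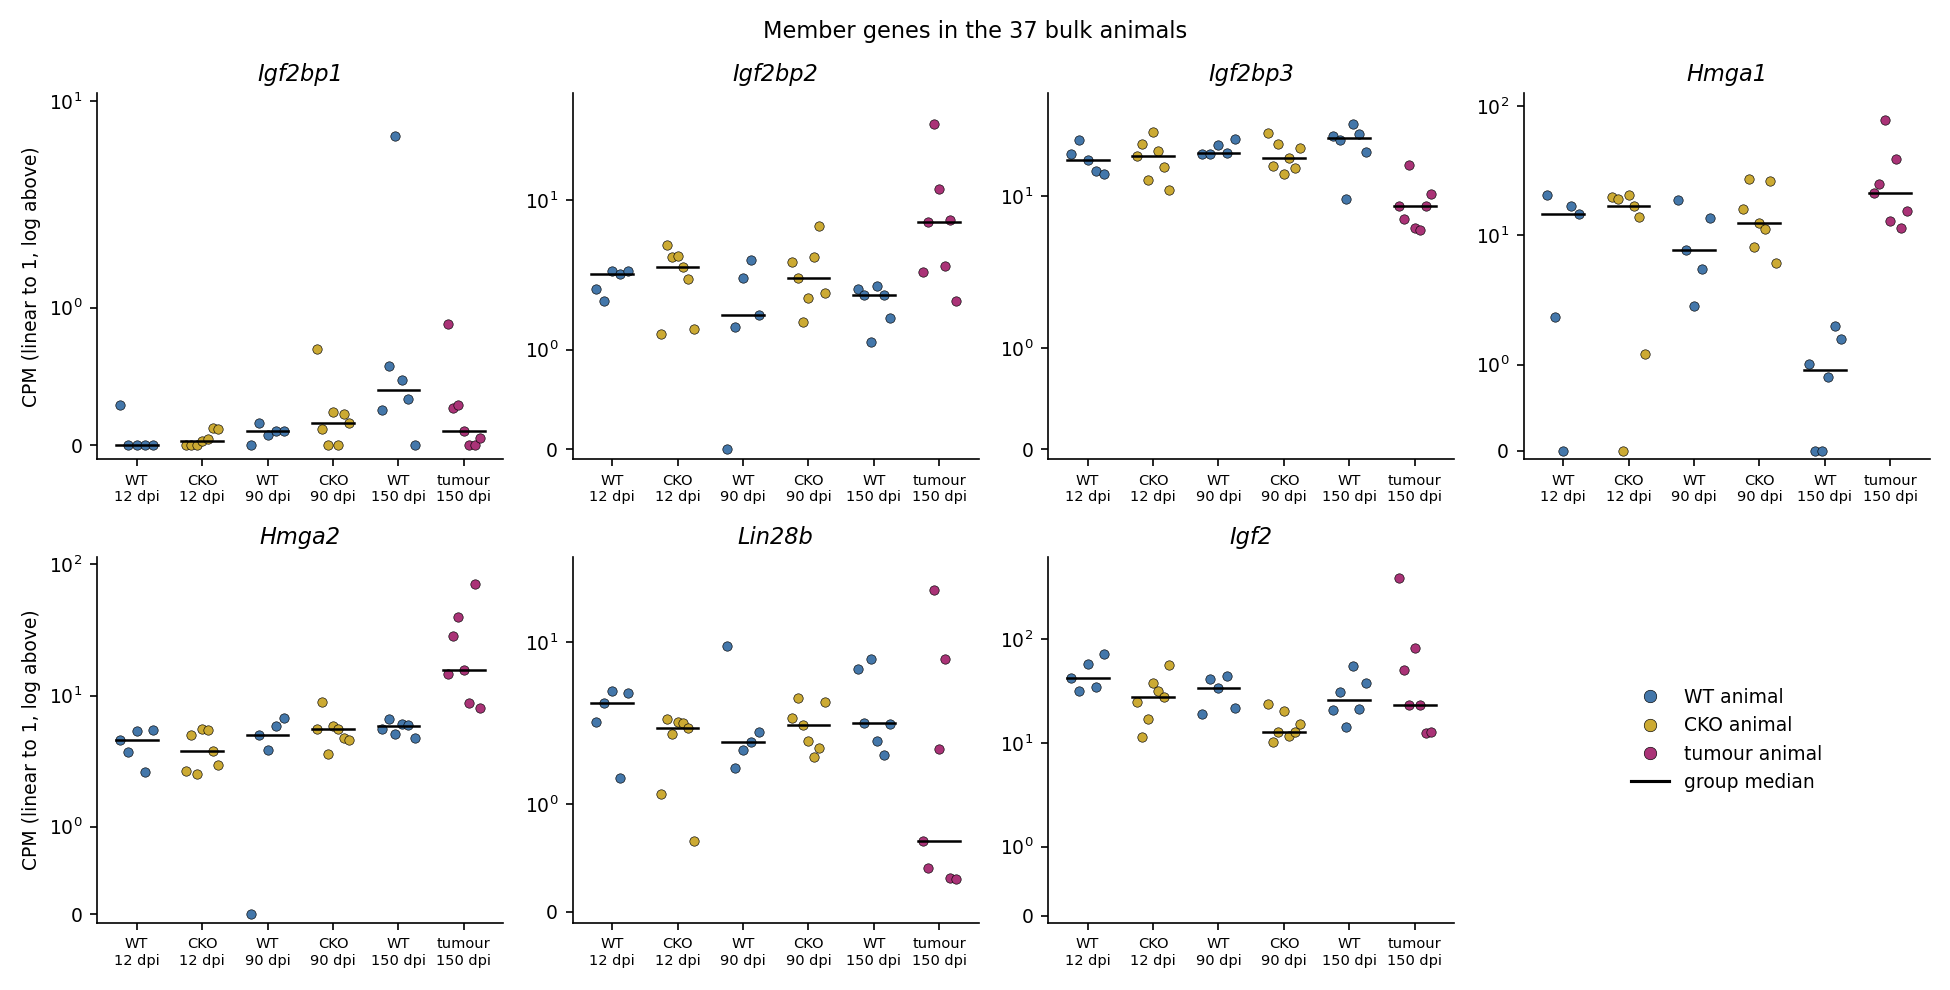
CPM of each of the 7 genes in the 37 bulk animals (1 point per animal, bar at the group median; the vertical axis is linear up to 1 CPM and logarithmic above). Hmga2 lies at 8.01 CPM or more in all 7 tumours and at 8.87 CPM or less in all other animals, and Igf2bp3 is lower in tumours. Igf2bp2, Hmga1, Hmga2, Lin28b and Igf2 each have a larger SD of CPM in tumours than in any other group.

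To compare the genes with each other, levels were divided by the length of the longest coding transcript. Even coverage of that transcript, and its use in these cells, were not tested. On this scale Igf2 was the highest of the 7 in WT cells at each time. Its means were 10.1, 6.72 and 6.33 CPM per kb at 12, 90 and 150 dpi. At 90 dpi Hmga1 followed at 4.87, with SDs of 2.36 for Igf2 and 3.26 for Hmga1. In WT cells at 150 dpi the next was Igf2bp3 at 5.13, followed by Hmga2, Lin28b at 0.790, Igf2bp2 at 0.540 and Hmga1 at 0.453 CPM per kb. The SDs there were 3.14 for Igf2, 1.61 for Igf2bp3, 0.462 for Lin28b, 0.152 for Igf2bp2 and 0.406 for Hmga1. Igf2 and Igf2bp3, and Igf2bp2 and Hmga1, differed there by less than either SD. In tumours the order was Igf2 at 17.9, Hmga1 at 14.6, Hmga2 at 6.98, Igf2bp2 at 2.48, Igf2bp3 at 2.08 and Lin28b at 0.872 CPM per kb. The SDs over tumours were 28.7 for Igf2, 11.9 for Hmga1, 5.96 for Hmga2, 2.70 for Igf2bp2, 0.803 for Igf2bp3 and 1.43 for Lin28b. In that order Igf2 and Hmga1, and Igf2bp2 and Igf2bp3, differed by less than either SD, and each other pair of neighbours by more than the smaller and less than the larger of their SDs. Hmga1 was the highest of the 7 in CKO cells at 12 and 90 dpi, with 6.54 and 7.70 CPM per kb. Igf2bp1 was the lowest in every group, between 0.00567 and 0.168 CPM per kb.

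Of the IGF2BP family, which binds a shared set of messages through KH and RRM domains, Igf2bp3 was the most abundant paralogue outside tumours, and Igf2bp2 and Igf2bp3 changed in opposite directions in tumours. Igf2bp3 (ENSMUSG00000029814, chr6:49085223-49214957, minus strand) had levels of 9.63 to 29.9 CPM (median 24.4) in the 6 WT animals at 150 dpi and of 14.0 to 26.2 CPM (median 17.9) in the 7 CKO animals at 90 dpi. In the 7 tumours it had 6.02 to 16.1 CPM (median 8.68). Of the tumours, 5 lay below every WT animal and 6 below every CKO animal at 90 dpi, and the highest tumour, Tumor_16840, lay inside both ranges. Igf2bp3 fell by 1.28 on the log2 scale against WT (SE 0.23, adjusted p = 2.28e-05) and by 1.06 against CKO cells at 90 dpi (SE 0.22, adjusted p = 0.000153). Both calls were kept whichever animal was left out. Before tumours, its group means lay between 17.8 and 20.6 CPM at 12 and 90 dpi in both genotypes.

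Igf2bp3 overlaps Malsu1, a mitochondrial ribosome assembly gene on the other strand, by 1529 bases at its 3′ end, and whether strand was used in counting is not given in the sources used here. Malsu1 was at 42.4 ± 4.98 CPM in WT at 150 dpi (SD, n = 6) and 49.0 ± 26.6 CPM in tumours (SD, n = 7), a log2 change of 0.20 (adjusted p = 0.522, edgeR), so the lower Igf2bp3 counts were not matched by lower Malsu1 counts. The summed neuron markers were lower in tumours too, as given above, and their part in the Igf2bp3 change was not tested.

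Igf2bp2 (ENSMUSG00000033581, chr16:22059009-22163299, minus strand), the paralogue that persists in some adult tissues, had 1.13 to 2.65 CPM (median 2.33) in WT at 150 dpi and 2.12 to 32.3 CPM (median 7.14) in tumours. All tumours but 1 lay above every WT animal of that time, the exception being Tumor_21354. Its log2 change was 2.22 against WT (SE 0.50, adjusted p = 0.000399) and 1.51 against CKO cells at 90 dpi (SE 0.44, adjusted p = 0.00449), which had 1.54 to 6.68 CPM. The second comparison rests on Tumor_16840, at 32.3 CPM: without it the log2 change was 0.74 (adjusted p = 0.0952). The first was 1.51 without it (adjusted p = 0.00249).

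Igf2bp1 (ENSMUSG00000013415, chr11:95957163-96005940, minus strand), the most strictly fetal paralogue, was close to absent. It had 25 counts in all 7 tumours together, 0 to 0.879 CPM per animal, with 2 tumours at 0. The 5 groups other than WT at 150 dpi had means of 0.0475 to 0.229 CPM. In WT at 150 dpi the mean was 1.41 CPM, of which WT_21592 carried most with 6.80 CPM from 12 counts; the other 5 animals had 0 to 0.580 CPM. Without the filter on low counts, edgeR gave a log2 change of -2.20 in tumours against WT (adjusted p = 0.183).

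**Figure D2:**
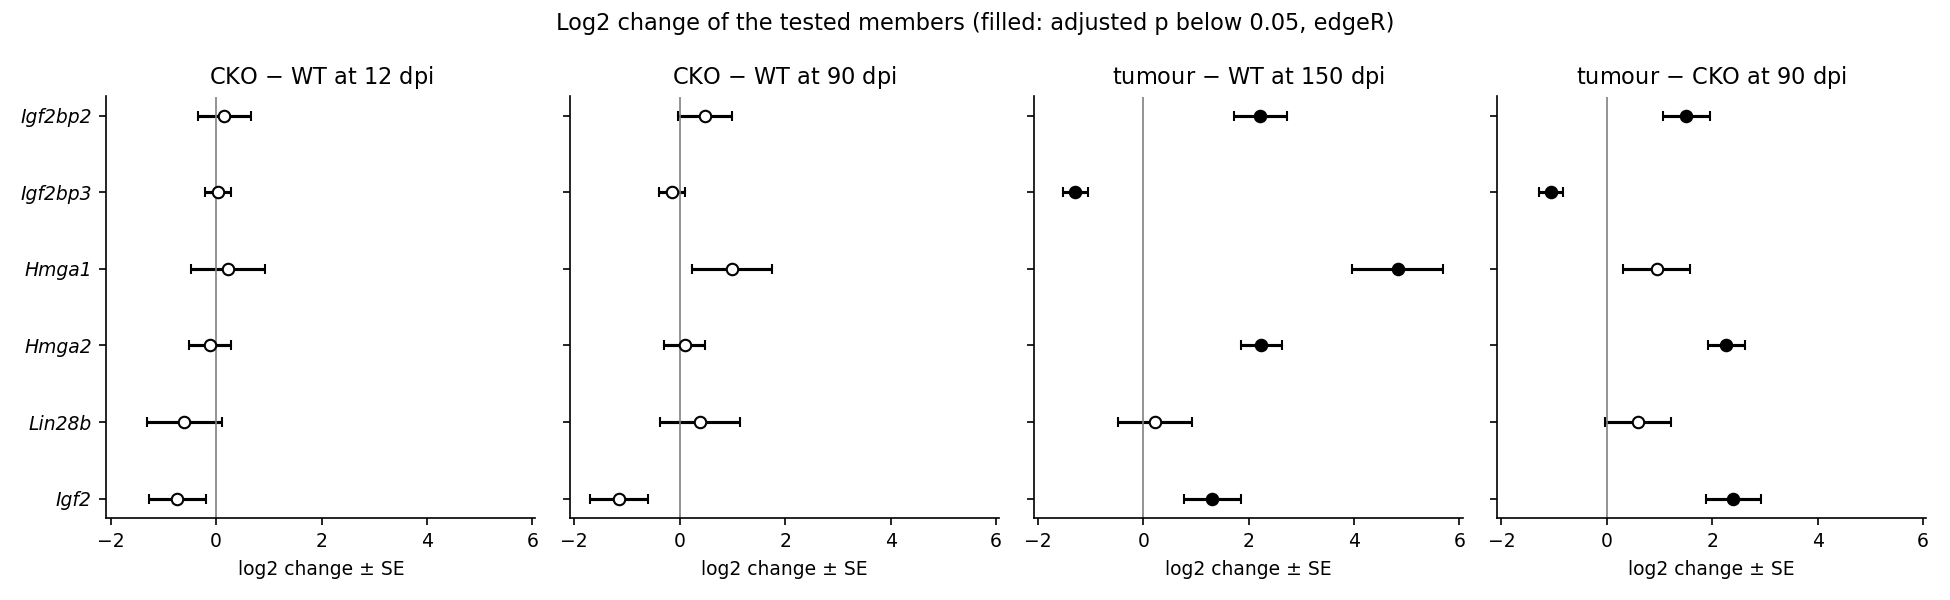
Log2 change (horizontal axis) with its SE for the 6 tested genes in 4 comparisons; filled points have an adjusted p under 0.05 (edgeR). Points are open at 12 and 90 dpi, and in tumours Igf2bp3 lies left of 0 while Igf2bp2, Hmga2 and Igf2 lie right of it in both comparisons.

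Hmga2 (ENSMUSG00000056758, chr10:120361275-120476469, minus strand), a well-known let-7 target, was higher in every tumour than in any WT animal at 150 dpi. It had 4.77 to 6.67 CPM (median 5.81) in WT at 150 dpi, 3.58 to 8.87 CPM (median 5.53) in CKO cells at 90 dpi, and 8.01 to 71.3 CPM (median 15.6) in tumours. The tumour and WT ranges did not overlap, and 5 of 7 tumours lay above every CKO animal at 90 dpi. The log2 change was 2.24 against WT (SE 0.38, adjusted p = 9.22e-06) and 2.27 against CKO cells (SE 0.35, adjusted p = 1.47e-06). Leaving out each animal in turn gave 1.82 to 2.48 against WT and kept both calls. At 12 and 90 dpi the means of the 4 groups were between 3.99 and 5.54 CPM. Antisense genes of the annotation overlap Hmga2 (1700006J14Rik by 20180 bases and 9230105E05Rik by 3271 bases) and were not analysed here; without strand their reads could not be told apart from those of Hmga2.

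Hmga1 (ENSMUSG00000046711, chr17:27556620-27563674, plus strand), the HMGA gene of most embryonic and many dividing cells, was nearly uncounted in WT at 150 dpi and counted in every tumour. RSEM divides a read that matches more than 1 gene by estimate, and for this reason the Hmga1 counts are uncertain. The size, the direction, the overlap of groups and the call of every Hmga1 difference given here carry that limit, and its call for the difference between genotype effects is not firm.

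As deposited, Hmga1 had 0 to 2.00 CPM (median 0.935) in WT at 150 dpi, with 2 of 6 animals at 0, and 11.5 to 78.6 CPM (median 21.3) in tumours. No tumour overlapped a WT animal, and the log2 change was 4.83 (SE 0.86, adjusted p = 1.61e-05). Against CKO cells at 90 dpi, where Hmga1 had 6.13 to 27.3 CPM (median 12.5), the log2 change in tumours was 0.95 (SE 0.63, adjusted p = 0.219), and 2 of 7 tumours lay above every CKO animal. All 6 WT animals at 150 dpi lay below all WT animals at 90 dpi, which had 2.85 to 19.0 CPM (median 7.66), the highest of them WT_21167 with 2 counts. That log2 difference was -2.89 (unadjusted p = 0.00247, adjusted p = 0.517). The WT animals at 150 dpi had the lowest median of the 6 groups for this gene.

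Lin28b (ENSMUSG00000063804, chr10:45376620-45486395, minus strand), the let-7 inhibitor, did not shift as a group but spread widely between tumours. WT animals at 150 dpi had 2.00 to 7.93 CPM (median 3.16) and tumours 0.310 to 21.1 CPM (median 0.659). Of the tumours, 4 lay below every WT animal and 2 above every WT animal. The log2 change was 0.23 against WT (SE 0.70, adjusted p = 0.826) and 0.60 against CKO cells at 90 dpi (SE 0.63, adjusted p = 0.453). The sign of both depends on Tumor_16840: without it they were -1.25 (adjusted p = 0.0692) and -1.11 (adjusted p = 0.0986). The tumour median was below, and the tumour mean of 4.71 ± 7.74 CPM (SD, n = 7) above, the WT mean of 4.27 ± 2.49 CPM (SD, n = 6).

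Igf2 (ENSMUSG00000048583, chr7:142650766-142666816, minus strand), the growth factor whose message the IGF2BP proteins were named for, had its highest level in a single tumour. WT animals at 150 dpi had 14.2 to 54.7 CPM (median 25.9) and tumours 12.4 to 386 CPM (median 23.4). The groups overlapped: 2 tumours lay above every WT animal and 2 below every WT animal. The log2 change of 1.31 against WT (SE 0.54, adjusted p = 0.0453) was carried by Tumor_16713, at 386 CPM, with 379 and 505 CPM before scaling in its 2 libraries. Without that animal it was 0.15 (adjusted p = 0.786), and the call was also lost on leaving out 11 other animals, each in turn. Against CKO cells at 90 dpi, which had 10.2 to 23.9 CPM (median 12.8), the log2 change was 2.40 (SE 0.52, adjusted p = 0.000221). Without Tumor_16713 it was 1.14 (adjusted p = 0.0140), and 3 of 7 tumours lay above every CKO animal. Gm49394 on the same strand (by 16048 bases) and the antisense gene Igf2os (by 7124 bases) overlap Igf2 in the annotation. Neither has a row in the count table, and their reads were not separated from those of Igf2 here.

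Fibroblast markers and Igf2 were both highest in Tumor_16713, but the tumours were otherwise in a different order for each. The 12 fibroblast markers summed to 605 CPM in Tumor_16713 and to 32.1 to 71.8 CPM in WT at 150 dpi, led by Islr. Tumor_21354, with 484 CPM of the same markers, had only 12.6 CPM of Igf2, among the lowest values of the tumours. Tumor_16844 had the next highest Igf2, 82.8 CPM, with 120 CPM of these markers. Tumor_16840 had 122 CPM of them and 23.4 CPM of Igf2. Endothelial markers summed to 134 CPM in Tumor_16713 and to 233 to 338 CPM in WT at 150 dpi. Pericyte and smooth muscle markers summed to 381 CPM in Tumor_16713 and to 357 to 666 CPM in WT at 150 dpi. The part of such cells in the Igf2 level was not tested. Choroid plexus markers were highest in the same 2 tumours as Igf2, at 20.3 CPM in Tumor_16844 and 17.2 CPM in Tumor_16713, against 3.25 to 11.8 CPM in the other 5 and 1.02 to 5.68 CPM in WT at 150 dpi, and their part in the Igf2 level was not tested either.

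Earlier, the deletion of Trp53 and Nf1 moved none of the 6 tested genes past the threshold. CKO against WT cells at 12 dpi gave 0 calls among them (0.0183% of all genes were called), with log2 changes of -0.74 for Igf2, -0.60 for Lin28b, -0.11 for Hmga2, 0.03 for Igf2bp3 and 0.15 for Igf2bp2; no direction is given for Hmga1. At 90 dpi it gave 0 calls (0.0489% of all genes). Igf2 is described because its unadjusted p was the smallest of the 6. Igf2 had 19.0 (WT_21167, 2 counts), 21.6, 33.6, 40.9 and 43.7 CPM in the 5 WT animals at 90 dpi and 10.2 to 23.9 CPM in the 7 CKO animals. Of the CKO animals, 5 lay below every WT animal, and the log2 change was -1.15 (SE 0.56, unadjusted p = 0.0449, adjusted p = 0.944). Over time, CKO cells gave 0 calls at 90 against 12 dpi (0% of all genes), WT cells 0 at 90 against 12 dpi (0.00612%) and 0 at 150 against 90 dpi (0.0183%). The difference between the genotype effects at 90 and 12 dpi likewise gave 0 (0%). edgeR called no gene at all for CKO cells over time or for that difference, where 696 and 589 genes had an unadjusted p under 0.05 and DESeq2 called 4 and 9.

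The genotype effect here means CKO cells against WT at 90 dpi and tumours against WT at 150 dpi. It differed between these for 4 of the 6. There was no CKO group without tumour at 150 dpi, so time and tumour state cannot be told apart. The effect shifted upwards for Hmga1, Hmga2 and Igf2 (3 of 6, beside 14.2% of all genes) and downwards for Igf2bp3 (1 of 6, beside 15.8%). The differences on the log2 scale were 2.15 for Hmga2 (SE 0.53, adjusted p = 0.00201), 2.47 for Igf2 (SE 0.77, adjusted p = 0.0139) and -1.14 for Igf2bp3 (SE 0.35, adjusted p = 0.0105). For Hmga1 it was 3.84 (SE 1.09, adjusted p = 0.00647), with the uncertainty of its counts given above. For Igf2 it was 1.31 without Tumor_16713 (adjusted p = 0.0743). Igf2bp2 had 1.74 (SE 0.70, adjusted p = 0.0562) and passed the threshold under DESeq2, at 1.89 (adjusted p = 0.0322), but not without Tumor_16840, at 1.04 (adjusted p = 0.178), or with the deepest library of each animal, at 1.27 (adjusted p = 0.178).

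**Figure D3:**
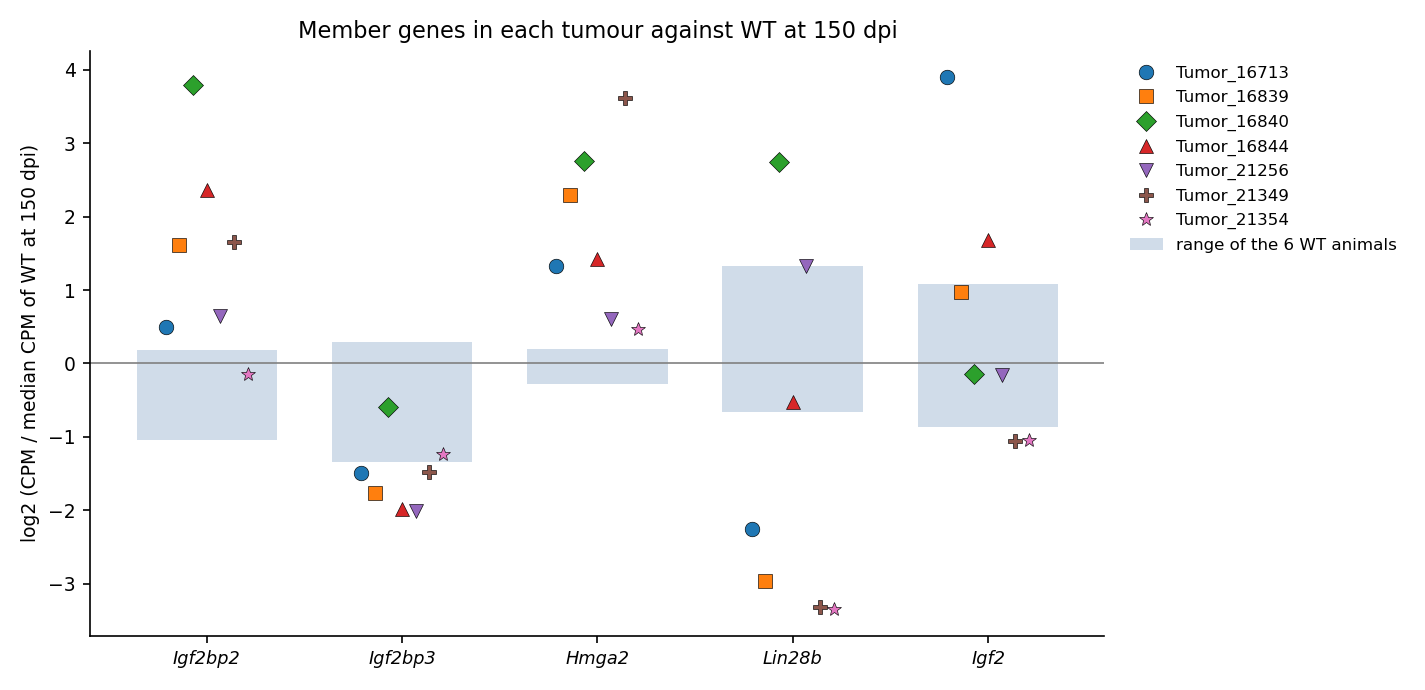
Log2 ratio of each tumour to the median of WT at 150 dpi (vertical axis), 1 symbol per tumour animal, for 5 of the genes, with the range of the 6 WT animals shaded. Hmga2 is above the WT range in all 7 tumours, Lin28b runs from far below to above it, and the highest tumour is Tumor_16840 for Igf2bp2 and Lin28b, Tumor_21349 for Hmga2 and Tumor_16713 for Igf2.

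The order of the 7 tumours differed from gene to gene. Tumor_16840 was the highest for Igf2bp2 (32.3 CPM), Igf2bp3 (16.1 CPM), Hmga1 (78.6 CPM) and Lin28b (21.1 CPM), and second for Hmga2 (39.5 CPM), while its Igf2 (23.4 CPM) was the tumour median. Tumor_21349 had the most Hmga2 (71.3 CPM) and one of the lowest Lin28b levels (0.318 CPM). Tumor_21354 had the least Hmga2 (8.01 CPM), Igf2bp2 (2.12 CPM) and Lin28b (0.310 CPM).

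Libraries of 1 animal could differ widely, here in CPM before scaling. In Tumor_16844 the 2 libraries held 1.81 and 25.1 CPM of Hmga1, a ratio of 13.9, but their Igf2 differed by a ratio of only 1.33. In CKO_20647 the libraries held 8 and 137 counts of Hmga2 and 0 and 167 of Igf2, at nearly equal totals of 9.47 and 9.67 M. For Hmga2 the 2 libraries of Tumor_21349, the highest tumour, had 68.9 and 83.4 CPM, so its rank did not come from 1 library. The 2 libraries of Tumor_16840 had 21.5 and 55.2 CPM of Igf2bp2 and 12.8 and 30.1 CPM of Lin28b, each above the scaled levels of all WT animals at 150 dpi.

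The genes whose levels were most like those of each member were found by Pearson's r of log2 CPM over the 37 animals, after group means were removed. For Igf2bp2 they were Slc2a3 (0.79) and Zfp512 (0.78), and for Igf2bp3 Helq (0.73), Olfr984 (0.70) and Blm (0.70). For Hmga1 they were Glb1l2 (0.64), Gm13361 (0.62) and Rec114 (0.59), and for Hmga2 Moxd1, Hist1h1e and Rbm24 (0.90 each). For Lin28b they were Asic2 (0.74), Usf2 (0.73) and St8sia3 (0.71), and for Igf2 Col9a3 (0.83), Sdk2 (0.75) and Fmod (0.75). These are descriptions over animals whose libraries share their scaling, picked from all genes tested. The shallow animal WT_21167 adds to several: without it r was 0.71 for Igf2bp2 and Slc2a3 and 0.79 for Hmga2 and Moxd1. For Lin28b and Asic2 it was 0.30 in the 30 animals without tumour.

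The partners of these genes are described from lists of 9 kinds, each with its tumour against WT comparison first; the median of all 16349 genes there was 0.06 on the log2 scale. Each list's counts stand against 24.3% of all genes called higher and 21.9% lower in that comparison, and 26.4% and 22.6% against CKO cells at 90 dpi. The lists are small, and nothing particular to a list is read from its counts. In the IGF axis, the receptors, substrates and binding proteins around IGF2, 7 of 13 tested genes rose and 1 fell, with a median of 0.88. The rises were led by IGF-binding proteins, which hold IGFs in the extracellular space: Igfbp3 went from 18.1 ± 7.04 CPM in WT (SD, n = 6) to 130 ± 119 CPM in tumours (SD, n = 7), a log2 change of 2.80 (adjusted p = 1.08e-05). Igfbp2 changed by 2.61 and Igfbp4 by 2.55. Igfbp6, the binding protein that prefers IGF2, went the other way, from a mean of 13.8 to 1.22 CPM, a log2 change of -3.40 (SE 0.51, adjusted p = 9.94e-07). Against CKO cells at 90 dpi 6 rose and 1 fell (median 0.61, all genes 0.12), with Igfbp2 at 2.85, Igfbp4 at 2.73, Igfbp3 at 2.12 and Igfbp6 at -3.80.

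Of 10 tested genes of let-7 processing and control, 1 rose and 1 fell against WT (median 0.02): Xpo5, which exports microRNA precursors from the nucleus, by 0.57 (adjusted p = 0.0128), and Dicer1, which cuts them, by -0.46 (adjusted p = 0.00862). Against CKO cells 2 rose and 1 fell (median -0.16): Trim71, itself an oncofetal let-7 target, by 1.72 (adjusted p = 0.0444), Zcchc11, which adds uridines to let-7 precursors bound by LIN28, by 0.41 (adjusted p = 0.0479), and Dicer1 by -0.50 (adjusted p = 0.00281). Mature let-7 was not measured. Of 16 other genes known as let-7 targets, 8 rose and 3 fell against WT (median 0.71), and 7 rose and 3 fell against CKO cells (median 0.87). Thbs1 (4.31), an extracellular matrix protein, and the cell cycle genes Cdk6 (2.77) and Ccnd2 (2.26) rose most against WT, and the activin receptor Acvr1c (-3.26) and the DNA-binding protein Arid3b (-1.90) were among those that fell. The summed proliferation genes, given above, were higher in every tumour than in any WT animal at 150 dpi, and their part in the changes of these cell cycle genes was not tested.

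Of 8 tested messages known to be bound by IGF2BP proteins, 4 rose and 3 fell in both comparisons (medians 0.35 and 0.45). Myc, the classic IGF2BP1 client, went from 4.53 ± 0.764 CPM in WT (SD, n = 6) to 129 ± 47.8 CPM in tumours (SD, n = 7), a log2 change of 4.85 (adjusted p = 2.30e-15). The adhesion receptor Cd44 changed by 5.47 and the proliferation antigen Mki67 went from a mean of 4.87 to 440 CPM, while the prostaglandin synthase Ptgs2 changed by -1.31 and the ubiquitin ligase subunit Btrc by -0.97. Of 9 IGF2BP partner proteins, 1 rose against WT (median 0.23), the cold-shock protein Ybx1 by 0.90 (adjusted p = 5.58e-05), and 2 rose against CKO cells (median 0.45), Ybx1 by 0.85 and the decay factor Khsrp by 0.56. Of 13 genes that write, read or erase N6-methyladenosine, the RNA mark that IGF2BP proteins can read, 1 rose and 1 fell against WT (median -0.15), the readers Ythdf2 by 0.90 and Ythdc2 by -1.13, and 1 rose against CKO cells (median 0.08), Ythdf2 by 1.21.

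Other HMG proteins were tested as neighbours of the HMGA pair: 4 of 10 rose and 2 fell against WT (median 0.41), and 4 rose and 1 fell against CKO cells (median 0.79). Hmgb2, a DNA-bending protein of dividing cells, changed by 4.26 against WT, the nucleosome-binding Hmgn5 by 1.46 and Hmg20b by 1.93, whereas Hmgn3 changed by -0.73. Of 11 imprinted growth genes, the class Igf2 belongs to, 3 rose and 3 fell against WT (median 0.36). Cdkn1c, a cell cycle inhibitor, changed by 2.26 and Mest by 1.85, and Peg10 went from a mean of 33.3 to 104 CPM. The paternally expressed Plagl1, Ndn and Peg3 changed by -2.54, -1.48 and -1.48. Against CKO cells 5 rose and 3 fell (median 0.35), with Dlk1 at 1.90 (adjusted p = 0.0450) among the rises.

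Of 10 further genes known as oncofetal, 5 passed the filter. Against WT, 1 rose and 2 fell (median -0.21): the heparin-binding growth factor Mdk by 1.31 (adjusted p = 0.00350), Lgr5 by -1.76 and Bcat1 by -0.52. Against CKO cells 2 rose and 3 fell (median -0.69), with Mdk at 1.70, Gpc3 at 0.89, Lgr5 at -1.78, Tpbg at -0.89 and Bcat1 at -0.69.

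In the small libraries of Trp53-/- Nf1-/- OPCs the members fell into a frequently detected pair, Hmga1 and Igf2, and 5 genes seen in few libraries. Hmga1 had a count in 27 of 56 10-cell libraries at 12 dpi (48.2%, exact 95% interval 34.7% to 62.0%) and in 47 of 56 at 90 dpi (83.9%, 71.7% to 92.4%). In pool-and-split controls it was found in 23 of 40 (57.5%) and 28 of 40 (70.0%). Counted over the 4 sets per time, the mean number of 10-cell libraries with Hmga1 was 6.75 of 14 at 12 dpi (3 to 9) and 11.75 at 90 dpi (10 to 13), and the sets of the 2 times did not overlap. The exact permutation test over the 70 assignments of sets gave p = 0.0286, two-sided, which is the smallest it can give, and 0.2 after adjustment over 14 such tests, which were added after the data were seen. The 10-cell libraries at 90 dpi also had more genes with a count, a median of 10109.5 against 7550 at 12 dpi, and the part of this difference in the detection of Hmga1 was not tested.

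**Figure D4:**
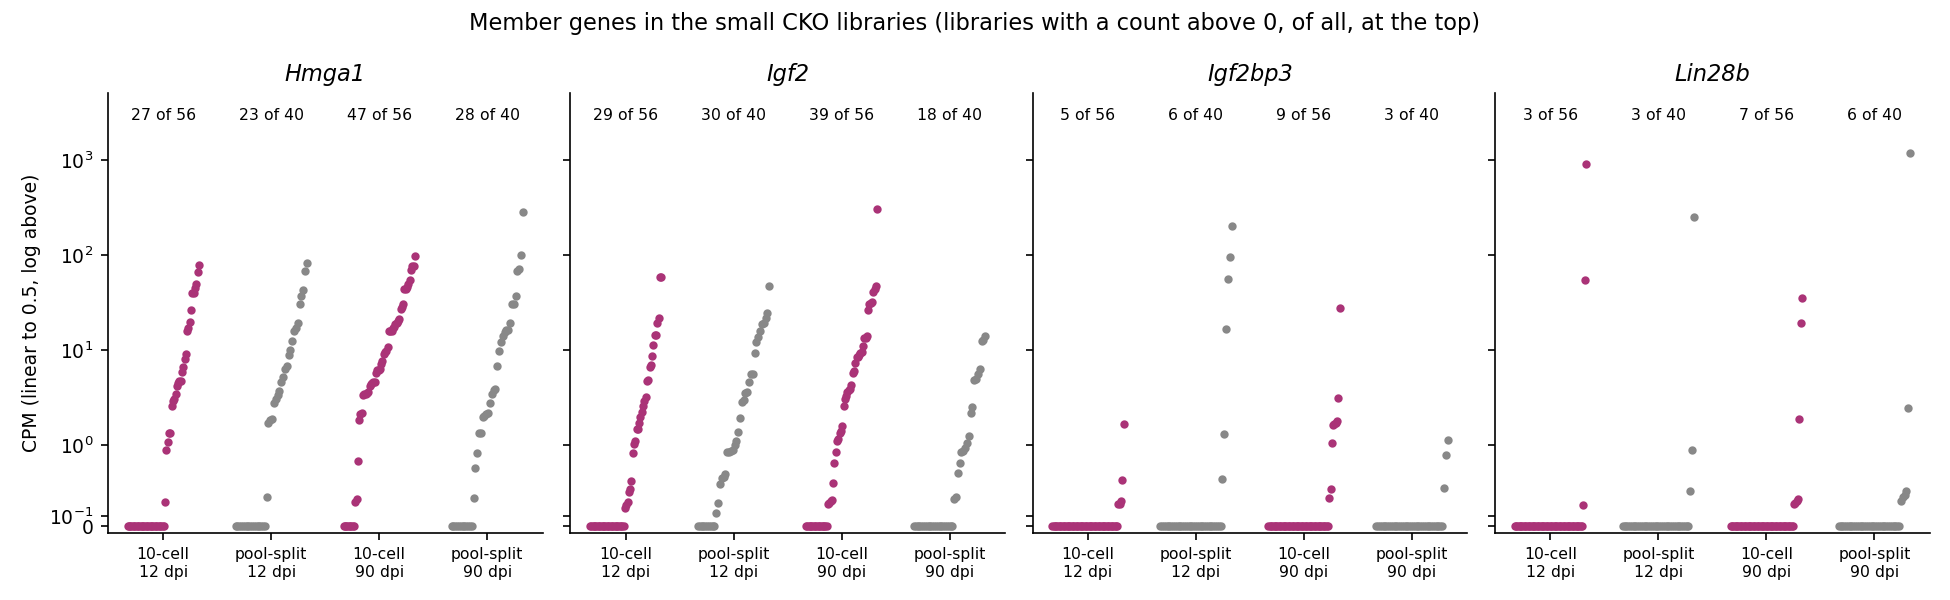
CPM of 4 genes in each small library (vertical axis linear up to 0.5 CPM and logarithmic above), libraries sorted by level within each kind and time, with the number of libraries that have a count at the top. Hmga1 and Igf2 form a continuous range, while Igf2bp3 and Lin28b are at 0 in most libraries and very high in single ones, up to 1186 CPM for Lin28b.

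Igf2 was found in 29 and 39 of 56 10-cell libraries at 12 and 90 dpi and in 30 and 18 of 40 pool-and-split libraries, so the direction over time differed between the kinds. By set, the exact permutation p-values were 0.0571 and 0.143, and both missed the threshold after adjustment (0.267 and 0.5). Igf2bp2 was in 0 of 56 10-cell libraries at 12 dpi, which allows a share of up to 5.36% by the limit of 3 counts and 6.38% by the exact 95% interval, and in 8 of 56 at 90 dpi (14.3%, 6.38% to 26.2%), against 3 of 40 pool-and-split libraries at each time. Its sets gave p = 0.0286 by the exact permutation test, and 0.2 adjusted. As given above, the 10-cell libraries at 90 dpi had more genes with a count. The part of this in the detection of Igf2 and Igf2bp2 was not tested. The remaining members were in 3 to 10 of 56 10-cell libraries and 1 to 6 of 40 pool-and-split libraries. Intervals and limits here treat the libraries as independent, though they come from 4 sets per time. They cover counting error only and not the spread between sets. Amplified reads are also not independent molecules.

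Where the rare members did appear, a few libraries carried nearly all of their counts. Lin28b reached 1186 CPM (3468 counts) in 1 pool-and-split library at 90 dpi, where the next highest had 2.43 CPM. It reached 898 CPM in a 10-cell library at 12 dpi and 250 CPM in a pool-and-split library at 12 dpi. Igf2bp3 reached 203, 94.3 and 55.5 CPM in 3 pool-and-split libraries at 12 dpi, with none of the 10-cell libraries at that time above 1.66 CPM. Such single high values thus stood in both kinds of library. Igf2 reached 303 CPM in a 10-cell library at 90 dpi (next highest 46.7 CPM). That library had 205 CPM of fibroblast, 1233 CPM of endothelial and 4017 CPM of neuron markers. Fibroblast markers ranged from 0 to 2573 CPM over the 56 10-cell libraries at 90 dpi. The library with 46.7 CPM of Igf2 had 3.75 CPM of them. The highest Lin28b library of 10 cells had 1263 CPM of fibroblast and 5435 CPM of endothelial markers beside 263 CPM of OPC markers. The next highest library of 10 cells, with 54.8 CPM of Lin28b, had 17.9, 83.2 and 792 CPM of these markers in that order. In the pool-and-split library with 1186 CPM of Lin28b they were at 1.40, 816 and 557 CPM. The part of such cells in these high values was not tested.

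Summed by set and tested with edgeR, 90 against 12 dpi gave 0 calls among the 3 members that passed the filter in 10-cell sets (0% of 14500 genes called, 1034 at an unadjusted p under 0.05) and 0 among 2 in pool-and-split sets (0% of 13408 genes, 1050 at an unadjusted p under 0.05). DESeq2 called 703 and 970 genes there, among them Igf2bp2 in 10-cell sets and Igf2bp3 in pool-and-split sets. The log2 change of Hmga1 was 0.75 in 10-cell sets (SE 0.82, adjusted p = 0.861) and 0.72 in pool-and-split sets (SE 1.08, adjusted p = 0.917). Only Hmga1 and Igf2 were detected often enough to compare the spread of 10-cell libraries with that of controls, as absolute deviations on the log2(CPM + 1) scale. Neither was called at 12 dpi (0.0252% of 7926 genes) or at 90 dpi (0.639% of 9704 genes). Igf2 at 90 dpi came nearest, with a mean deviation of 1.70 in 10-cell and 0.858 in pool-and-split libraries, a difference of 0.84 (SE 0.26, unadjusted p = 0.00140, adjusted p = 0.0911 by limma). Libraries, not sets, were the observations of this test. Igf2 had a count in 18 of the 40 pool-and-split libraries at 90 dpi and a median of 0 CPM, so many of their values lay at the floor. For Hmga1 at 90 dpi the difference was -0.26 (adjusted p = 0.755), and at 12 dpi those of both genes were -0.05 and -0.15.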

How the data were processed

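Per the submitters' processing notes, the authors used RSEM, Bowtie2 and GRCm38; versions and strand setting are not given in the sources used here. The deposited table holds expected counts for 240 libraries, which were rounded. Libraries of the 11 animals with 2 were summed (37 bulk animals). Every tumour animal had 2 libraries, as did some CKO animals, while WT animals had 1 each. The number of libraries summed thus differed between tumours and both control groups. Fits with only the deepest library of each animal were an alternative. edgeR 4.0.16 (R 4.3.3) tested genes that passed filterByExpr (minimum count 10, minimum total 15) by quasi-likelihood F test, with TMM scaling, sex as covariate and all groups in 1 fit. CPM use TMM-scaled totals. A gene was called at an adjusted p under 0.05 (Benjamini-Hochberg, every tested gene). Small libraries were summed into 4 sets per time and kind by sex and label number, whose meaning is not stated. The p-values of tests on sets measure the spread between those sets. Spread used limma 3.58.1 on log2(CPM + 1) for genes detected in 50% of libraries. There each library was 1 observation, so those p-values do not measure the spread between sets. DESeq2 1.42.0, other scaling, filters and left-out animals were alternatives. The fits were tested on simulated counts. Named genes are the members, the 3 largest called rises and falls of each list, and the 3 genes most correlated with each member; some of these, and a result that bears on 1 member, are not reported here. Members and lists were chosen with earlier results of these data known. Coordinates are from GENCODE M21 (GRCm38).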

Additional observations from a re-analysis of the deposited data

Results flagged for a closer look

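In groups of 4 to 10 animals, the highest value stood apart from the rest in 9 of 42 groups of a gene (Dixon's test at 95%). Chance flags about 1 in 20 groups of normally distributed values. CPM need not be so distributed, and for Igf2bp1 in WT at 12 dpi 4 of 5 animals were at 0, so the 9 cannot be set against that rate. For Igf2bp1 these were WT_22056 at 12 dpi (0.292 CPM), CKO_20642 at 90 dpi (0.698 CPM), WT_21592 at 150 dpi (6.80 CPM) and Tumor_16713 (0.879 CPM), all from few counts. Tumor_16840 stood apart for Igf2bp2 (32.3 CPM, next 12.0), Hmga1 (78.6 CPM, next 38.9) and Lin28b (21.1 CPM, next 7.96). Tumor_16713 did so for Igf2 (386 CPM, next 82.8). WT_21167, the shallowest animal, did so for Lin28b at 9.48 CPM.

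The effect of genotype against WT differed between CKO cells at 90 dpi and tumours at 150 dpi. This was a test of the difference itself (edgeR, adjusted over all genes). It called Hmga2 (2.15), Igf2 (2.47), Hmga1 (3.84) and Igf2bp3 (-1.14), all on the log2 scale. Time and tumour state cannot be told apart in these differences, and the limits of those of Hmga1 and Igf2 stand in the text.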

How the results depend on the processing

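Hmga2 and Igf2bp3 were called in both tumour comparisons under every alternative that tested them; a mean of at least 10 CPM left out Hmga2, Igf2bp2 and Lin28b. Under that filter 3 of 3 members tested were called in tumours against WT (5 of 6 in the main fit). Against CKO cells 2 of 3 were called (4 of 6 in the main fit). Fewer members were tested there. No called result changed direction. Igf2 against WT lost its call with the compared groups alone (1.16, adjusted p = 0.260) and with a robust spread (adjusted p = 0.0546), and Igf2bp2 against CKO cells with the compared groups alone (1.44, adjusted p = 0.0531) and the deepest library of each animal (1.02, adjusted p = 0.0537). Leaving out 1 animal gave 4 to 5 members called against WT, 3 to 4 against CKO cells, 4 to 5 for the difference between the genotype effects at 150 and 90 dpi, and 0 in the 6 other bulk comparisons. DESeq2 called 1 member in 10-cell sets and 1 in pool-and-split sets, against 0 by edgeR; the cause was not tested. The first is Igf2bp2, at 0 counts in all 4 sets at 12 dpi, so that no fold is given. The second is Igf2bp3, with 1356 counts in 1 set at 12 dpi and 0 to 276 in the other 3. Set numbers did not pair the sets (correlations of deviations -0.0339 to 0.0184 in 10-cell and -0.0393 to 0.00277 in pool-and-split sets), and with a replicate block by sex and number 0 members were called in either kind, Hmga1 having 1.06 in 10-cell sets. All-gene counts moved by over 1.5 times for CKO against WT at 12 dpi (3, but 92 with the compared groups alone, 18 by DESeq2 and 1 at 10 CPM), CKO against WT at 90 dpi (8, but 17 by DESeq2 and 4 at 10 CPM), WT at 90 against 12 dpi (1, but 295 with the compared groups alone and 13 by DESeq2), WT at 150 against 90 dpi (3, but 20 by DESeq2) and the sets (0, but 251 and 239 with each library as a sample). Igf2bp1 is limited by at most 25 counts per group. The 5 rare members did not pass the main filter of the spread test, detection in 50% of libraries. With genes detected in 10% of libraries, 3 members were tested at 12 dpi and 7 at 90 dpi. None was called (2 of 14647 genes were called at 12 dpi and 89 of 15509 at 90 dpi), and most values of the rare members were at 0.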

Other observations

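At 90 dpi, 10 or more counts of Hmga1 stood in 41 of 56 10-cell libraries and in 17 of 40 pool-and-split controls, and at 12 dpi in 22 of 56 and 18 of 40. For Igf2 the numbers were 27 of 56 and 8 of 40 at 90 dpi and 15 of 56 and 16 of 40 at 12 dpi. Igf2bp1 reached 10 counts in 0 small libraries.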
